A study of Mus musculus with 21 samples.

Results

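Neural and glial cells of regenerating skeletal muscle were taken as all cells that the authors labelled Neural after integration of their samples with Harmony, a method that aligns cells of different samples. There were 1015 such cells among 87822 in 21 samples of mouse tibialis anterior muscle, or 1.16% of all cells, with 410 from uninjured and 605 from injured muscle. Each sample came from 1 female C57Bl/6J mouse of 20 months, and the groups were uninjured muscle (4 mice, A to D) and muscle at 1 (4 mice), 2 (3), 3.5 (4), 5 (3) and 7 (3) days post-injury (dpi). Injury was by notexin, a snake venom toxin that kills muscle fibers and spares much of the stem cell pool, so uninjured and injured mice shared age, sex and strain and differed by the toxin and the time after it. Whole muscles were digested with enzymes and single cells were sequenced on the 10x Chromium platform, so that cells recovered after digestion were counted and not cells in the tissue.

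Muscle nerves carry the axons of motor and sensory neurons, whose cell bodies lie outside the muscle, in spinal cord and ganglia. The nerve cells that can be recovered from digested muscle are therefore mainly glia: myelinating and non-myelinating Schwann cells along the axons and terminal Schwann cells that cap the neuromuscular junction. Sox10, a transcription factor of the neural crest, is needed to specify and maintain Schwann cells and is a usual marker of them. After nerve damage, Schwann cells are known to turn into repair cells that clear myelin and guide regrowing axons.

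The label could be compared with other labels but not checked against Sox10, because the tables used here hold totals per cell and no values of single genes. No cell barcode was shared between neural cells of any 2 samples. Per sample, 11 to 211 neural cells were recovered, and the smallest numbers, 11 each, were in 3.5 dpi C, 3.5 dpi D and 5 dpi A. The libraries of uninjured muscle differed from the others in ways that move with the groups below. Uninjured samples kept 25.3 to 49.5% of their barcodes after quality filters and had 44.2 to 56.3% of reads inside cells, whereas injured samples kept 54.3 to 83.2% and had 47.7 to 94.8% of reads inside cells. The part of these differences in the results was not tested.

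To ask how the share of neural cells changed during regeneration, neural cells were counted against all cells of the same mouse. In uninjured muscle they made up 1.94%, 3.75%, 4.20% and 2.77% of cells in mice A to D. At 1 dpi the values were 0.446%, 1.17%, 0.287% and 1.15%. At 2 dpi they were 0.729%, 0.848% and 1.85%. Every mouse at 1 and 2 dpi thus lay below every uninjured mouse. At 3.5 dpi the share was 0.415%, 0.532%, 0.163% and 0.282%, the lowest mean of the series. At 5 dpi the values were 0.207%, 0.496% and 1.85%. Those of 7 dpi were 1.14%, 2.17% and 1.55%. All mice of 3.5 and 5 dpi were also below all uninjured mice, while 1 mouse of 7 dpi reached into the uninjured range.

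The mean share therefore fell from 3.16% ± 1.01 (SD, n = 4) in uninjured muscle to 0.348% ± 0.160 (SD, n = 4) at 3.5 dpi, 9.09-fold lower, and was 1.62% ± 0.519 (SD, n = 3) at 7 dpi. The change over the 6 groups passed the test (adjusted p = 0.00140 over 23 cell types, permutation test of F on shares after the arcsine square root), as it did for 78.3% of the types. Types that passed and had a fall as their largest difference were 30.4% of the 23. All 17 injured mice together had 0.899% ± 0.641 (SD), so the share fell by 2.27 percentage points against uninjured mice (adjusted p = 0.000961, exact permutation test), a test that 73.9% of types passed. A type whose mice all lay below the uninjured mice was no rarity, with 13.0% of types at 1 dpi, 30.4% on day 2, 39.1% on day 3.5 and 17.4% on day 5. No single time point passed after adjustment over 115 exact permutation tests of types and time points, of which 0.0% passed and 63 had an unadjusted p under 0.05. For neural cells, 1 and 3.5 dpi had an unadjusted exact p of 0.0286, the smallest that 4 against 3 or 4 mice allow, and an adjusted p of 0.0522. With this floor a test could pass only if most of the 115 reached it, so failure to pass does not show that shares were alike. Counting error was small beside the distance between the lowest and the highest share of the series. The exact 95% binomial interval of the lowest share, 11 of 6746 cells in 3.5 dpi C, ran from 0.0814 to 0.292%. That of the highest, 211 of 5029 cells in uninjured C, ran from 3.66 to 4.79%. Within groups, counting error was not always small. At 3.5 dpi the shares were 0.163 to 0.532%, and the interval of mouse B ran from 0.291 to 0.891%. The interval of uninjured D ran from 1.83 to 4.01%, whereas those of uninjured A (1.41 to 2.60%) and C did not overlap. These intervals cover counting error only.

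**Figure D1:**
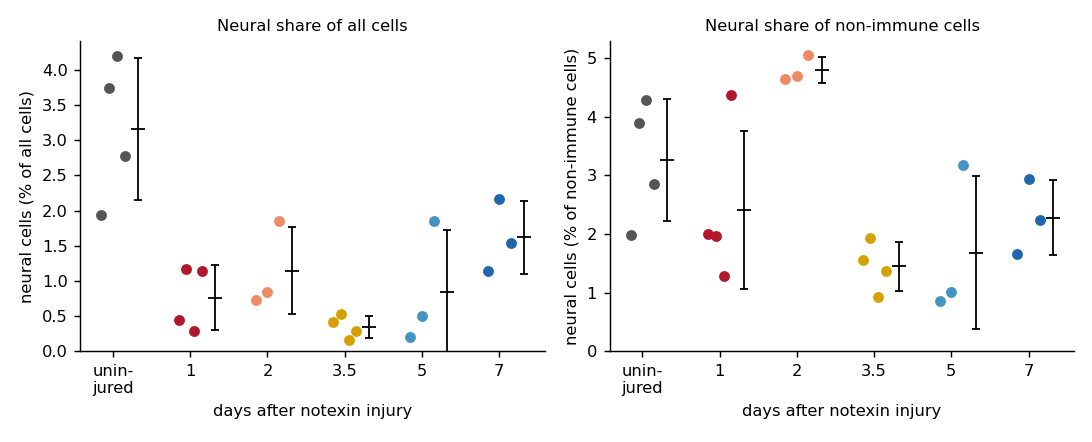
Neural cells as percent of all cells (left) and of non-immune cells (right) in each mouse (points) by days after notexin injury, with the group mean and SD beside them (the SD bar of 5 dpi on the left runs past the end of the axis at 0). On the left all mice of 1, 2, 3.5 and 5 dpi lie below the lowest uninjured mouse at 1.94%, whereas on the right the 3 mice of 2 dpi, at 4.64 to 5.05%, lie above all uninjured mice and the 4 mice of 3.5 dpi lie below them.

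Immune cells entered the denominator in numbers that changed with time. Non-immune cells made up 96.1 to 97.7% of cells in uninjured muscle and 15.7 to 74.0% after injury, and fewer neural cells and more immune cells cannot be told apart in a share of all cells. Neural cells were therefore also counted against the non-immune cells of each mouse. In uninjured mice they were 1.99%, 3.90%, 4.29% and 2.85% of non-immune cells, and at 1 dpi 1.99%, 1.97%, 1.29% and 4.37%. At 2 dpi they were 4.64%, 4.70% and 5.05%, above every uninjured mouse. At 3.5 dpi they were 1.56%, 1.94%, 0.923% and 1.37%, below every uninjured mouse. At 5 dpi the values were 0.853%, 1.02% and 3.18% and at 7 dpi 1.67%, 2.93% and 2.25%, both overlapping with uninjured muscle. The make-up of the non-immune cells changed as well. From uninjured muscle to 3.5 dpi, the mean share of muscle stem cells rose from 1.36 to 10.5%. Myoblasts rose from 0.0783 to 11.5% and pro-remodeling fibro-adipogenic progenitors from 9.05 to 22.2%. Other types fell, capillary endothelial cells the most, from 46.5 to 23.4%. The part of these changes in the neural share of non-immune cells was not tested.

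Against this denominator the course did not follow a single fall and return. The mean rose from 3.26% ± 1.04 (SD, n = 4) in uninjured muscle to 4.80% ± 0.222 (SD, n = 3) at 2 dpi and was 1.45% ± 0.421 (SD, n = 4) at 3.5 dpi, 2.25-fold below uninjured muscle. The 6 groups differed (adjusted p = 0.0309 over 13 non-immune types, permutation test, passed by 30.8% of the types). This call was lost on leaving out each of 8 mice in turn, namely uninjured D, all mice of 2 dpi, 3.5 dpi A, C and D, and 5 dpi B, where the adjusted p was between 0.0505 and 0.0998. Mice that all lay above uninjured muscle at 2 dpi were seen in 23.1% of types, and mice that all lay below it at 3.5 dpi in 15.4%. Single time points did not pass here either, with an adjusted p of 0.232 at 2 dpi and 0.155 at 3.5 dpi over 65 exact permutation tests, of which 0.0% passed and 12 had an unadjusted p under 0.05. At 3.5 dpi the unadjusted exact p was 0.0286, the smallest that these groups allow. With this floor a test could pass only if most of the 65 reached it. That no time point passed therefore does not show that the shares were alike. The 17 injured mice together had 2.45% ± 1.43 (SD), a difference of −0.805 points that did not pass (adjusted p = 0.460, exact permutation test).

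Neural cells were then set against single cell types of the same mouse, which asks whether they were recovered in step with other cells of the muscle stroma and vessels. Smooth muscle cells wrap arterioles, capillary endothelial cells line the smallest vessels, tenocytes make tendon matrix, and fibro-adipogenic progenitors (FAPs) are the stromal cells that expand after injury. Of the cells labelled smooth muscle by Harmony, 72.8% were named Pericytes after another integration by the authors, Scanorama, so this comparison type may not be smooth muscle alone. For every 100 smooth muscle cells there were 35.2, 52.5, 104 and 67.5 neural cells in uninjured mice A to D. There were 50.0, 66.7, 54.2 and 64.7 at 1 dpi, and 98.7, 50.6 and 68.6 at 2 dpi. There were 65.0, 50.0, 61.1 and 33.3 at 3.5 dpi, 21.2, 25.6 and 54.4 at 5 dpi, and 78.2, 83.6 and 48.6 at 7 dpi. Only 5 dpi A and B, and 3.5 dpi D, lay below the lowest uninjured mouse.

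The log2 ratio of neural to smooth muscle cells had its largest difference from uninjured muscle at 5 dpi, −0.94, and did not pass (adjusted p = 0.200 over 4 ratios, permutation test). Without 5 dpi C, it passed with a difference of −1.34 (adjusted p = 0.0483, permutation test). The ratio to capillary cells differed least, by at most 0.57 at 2 dpi (adjusted p = 0.615), and per 100 capillary cells there were 4.23 to 19.9 neural cells in uninjured and 4.33 to 13.4 in injured mice. For tenocytes the largest difference was −1.20 at 3.5 dpi (adjusted p = 0.615), and 1 dpi C stood apart with 8.12 neural cells per 100 tenocytes against 122 to 156 in the other mice of 1 dpi.

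The widest difference was to FAPs. Per 100 FAPs there were 16.7, 9.28, 40.5 and 26.0 neural cells in uninjured mice, 4.05, 5.79, 2.45 and 3.67 at 3.5 dpi, and 2.02, 1.70 and 15.2 at 5 dpi. They ran from 2.34 to 26.9 at 1 dpi, 12.7 to 102 at 2 dpi and 3.52 to 11.1 at 7 dpi. All mice of 3.5 dpi lay below all uninjured mice, whereas 5 dpi C did not. The largest log2 difference was −2.41 at 5 dpi, 5.31-fold, and did not pass (adjusted p = 0.121, permutation test). It passed without 1 dpi C (adjusted p = 0.0386) and without 5 dpi C, where the difference was −3.41 (adjusted p = 0.0227). That a ratio did not pass does not show that neural cells kept pace with the other type.

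**Figure D2:**
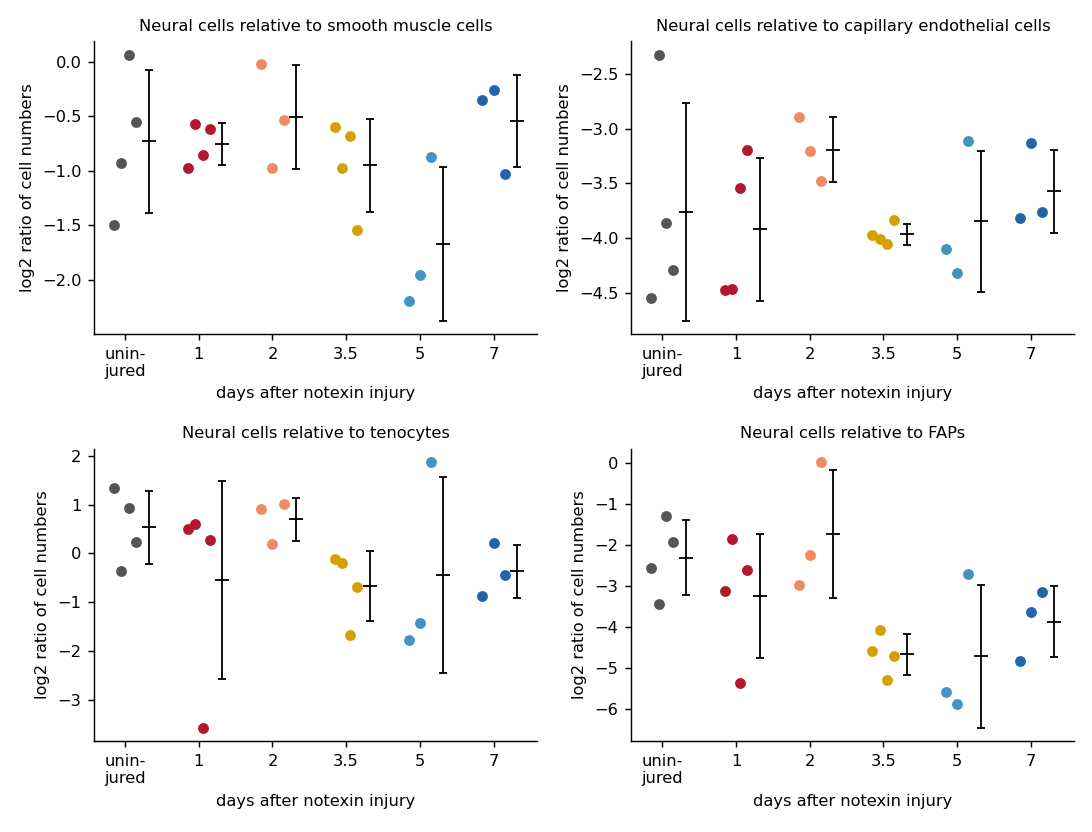
Log2 ratio of the number of neural cells to smooth muscle cells, capillary endothelial cells, tenocytes and FAPs in each mouse (points; 0.5 cells added to both numbers), with group means and SD, on axes of different range. The ratio to FAPs had its largest difference from uninjured muscle at 5 dpi (−2.41), that to capillary cells differed by at most 0.57, and 1 dpi C lies far below the other mice of its group for tenocytes.

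The tables also give, for each cell, the number of unique molecular identifiers (UMIs, a count of captured transcripts), the number of genes detected, and the percent of UMIs from sets of genes. The median over the neural cells of a mouse was compared between groups for 10 of these readouts; medians of small nucleolar, micro and small nuclear RNA were at or near 0 and were not tested. A readout is a sum over many genes and says nothing about single genes. P-values were adjusted over all readouts of all types with at least 5 cells in a mouse, among which 43.8% of 224 passed for the time course and 29.7% of 185 for injured against uninjured muscle.

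Mitochondrial transcripts, which encode subunits of the respiratory chain, made up less of the UMIs of neural cells after injury. The medians in uninjured mice A to D were 17.5%, 22.5%, 19.3% and 12.9%. At 1 dpi they were 7.34%, 14.2%, 7.41% and 10.6%, and at 2 dpi 12.6%, 11.8% and 14.9%. At 3.5 dpi they were 15.7%, 15.03%, 12.002% and 10.95%. The lowest values were thus in 1 dpi A and C, with 13 neural cells each. Uninjured D was the uninjured mouse within the range of injured mice. At 5 dpi the medians were 12.1%, 13.0% and 13.1%, and at 7 dpi 13.2%, 12.8% and 15.5%. The mean of the 17 injured mice was 12.5% ± 2.44 (SD) against 18.04% ± 4.01 (SD, n = 4) in uninjured mice, so that it fell by 5.56 points (adjusted p = 0.0172, exact permutation test).

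Lower mitochondrial medians after injury passed in 94.7% of 19 types, a fall shared by 18 of the 19 types tested. The time course also passed for neural cells (adjusted p = 0.0357, permutation test; 65.2% of types), with the largest difference at 1 dpi, −8.15 points, but it was lost on leaving out any of 14 mice in turn. It passed without uninjured D, 1 dpi B, 2 dpi C, 3.5 dpi A, C or D, or 7 dpi C, and was lost with a replicate block (adjusted p = 0.0508). The fall against uninjured muscle was lost without uninjured A, B or C, with adjusted p of 0.0507, 0.0787 and 0.0683. Under a stricter cell filter, which kept those with 1000 or more genes, 2000 or more UMIs and up to 15% mitochondrial UMIs, the difference after injury was −2.38 points (adjusted p = 0.0715) and that at 1 dpi −3.11 points (adjusted p = 0.167 over the time course), neither past the threshold. The authors removed cells above 30% mitochondrial UMIs, which bounds the medians from above, and 6.82 to 35.2% of neural cells in uninjured mice were over 25%, against 0 to 15.4% in injured mice.

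Transcripts of ribosomal proteins, the protein part of ribosomes, were a larger share of UMIs at 1 dpi. Their medians were 7.06%, 7.22%, 7.27% and 7.78% of UMIs in uninjured mice and 10.4%, 10.1%, 9.52% and 8.74% at 1 dpi. All mice of 1 dpi lay above all uninjured mice, as in 23.5% of 17 types. The medians of 1 dpi A, B and C rest on 13, 14 and 13 neural cells. At 2 dpi the medians were 6.18%, 5.79% and 7.21%, of which B and A lay below the uninjured range. From 3.5 to 7 dpi they ran from 5.90 to 8.87%, on both sides of the uninjured values. The time course passed (adjusted p = 0.00448, permutation test; 60.9% of types) with a rise of 2.35 points at 1 dpi and stayed past the threshold with each mouse left out. Under the stricter cell filter given above the rise was 2.20 points and did not pass (adjusted p = 0.122). Injured mice as a whole had 7.58% and uninjured mice 7.33%, which did not pass (adjusted p = 0.818, exact permutation test).

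**Figure D3:**
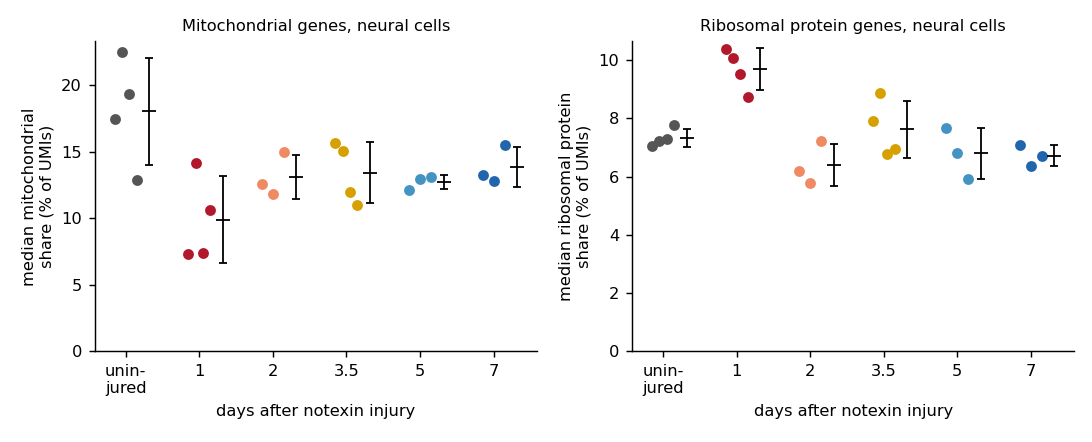
Median share of UMIs from mitochondrial genes (left) and ribosomal protein genes (right) over the neural cells of each mouse (points), with group means and SD. Mitochondrial medians were 12.9 to 22.5% in uninjured and 7.34 to 15.7% in injured mice, and ribosomal protein medians of 1 dpi lie above those of uninjured mice.

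The share from protein coding genes, a set that overlaps with mitochondrial genes, was 86.8% ± 1.53 (SD, n = 4) in uninjured and 89.4% in injured mice, 2.67 points higher (adjusted p = 0.0393, exact permutation test; 36.8% of types), and did not pass over the time course (adjusted p = 0.0568). The rise was lost without uninjured A, C or D, with adjusted p of 0.118, 0.0782 and 0.130, and under the stricter cell filter it was 1.63 points (adjusted p = 0.154). The number of UMIs in neural cells did not pass for injured against uninjured mice. The mouse medians were 4868, 3407, 3699 and 4658 in uninjured mice and 2064 to 7791 in injured mice, with a difference of the log2 means of −0.01 (adjusted p = 0.974, exact permutation test). Reads per cell ran from 15035 in 2 dpi A, the mouse with the lowest median, to 117596 in uninjured D. The part of this depth in UMIs and genes was not tested. Over the time course the largest difference in UMIs was a mean 1.34-fold that of uninjured muscle at 1 dpi (adjusted p = 0.238), and in genes 1.29-fold (adjusted p = 0.322), also at 1 dpi. Shares from transcription factor genes, heat shock proteins, long intergenic (lincRNA), antisense and bidirectional promoter noncoding RNA did not pass in either comparison, with adjusted p from 0.121 to 0.969.

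A median hides a minority of cells, and heat shock protein transcripts, which encode chaperones that rise under stress, were such a case. The median in neural cells was 0.744% in uninjured and 0.749% in injured mice. The means over cells were 1.399%, 1.33%, 0.998% and 1.23% in uninjured mice A to D and 0.579 to 1.17% in injured mice. With means in place of medians, the share fell by 0.414 points after injury (adjusted p = 0.0107, exact permutation test). Neural cells with over 2% heat shock UMIs, a limit chosen after the values were seen, were 11 of 44 cells in uninjured A and 17.2%, 11.8% and 14.8% of neural cells in B, C and D, 62 cells in all. In injured mice there were 23 such cells of 605, at most 10.3% in any mouse, and none in 12 of the 17 mice. In 8 of these 12 mice only 11 to 14 neural cells were recovered. There a count of 0 would allow a share of up to 21.4 to 27.3% if cells were independent, which cells of the same mouse are not. These 8 mice therefore cannot be told apart from uninjured mice at this depth. The observed shares of injured mice all lay below the uninjured ones, as in 15.8% of 19 types.

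To ask whether these changes were larger or smaller than in neighbouring cells, the neural median was set against that of smooth muscle and of capillary cells of the same mouse, in 20 tests. Capillary cells lost more of their mitochondrial share than neural cells did. Neural minus capillary medians were −2.56, −1.08, 1.31 and 3.46 points in uninjured mice. They were 1.16, 4.52, 3.19 and 3.67 points at 1 dpi and 4.16 to 9.53 points in the mice of 2 to 7 dpi. Neural cells were thus above capillary cells in every injured mouse, and in 2 of 4 uninjured mice.

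The mean difference was 0.282 ± 2.65 points (SD, n = 4) before and 5.18 ± 1.96 (SD, n = 17) after injury. Over the time course it passed narrowly (adjusted p = 0.0494, permutation test), with the largest change, 6.71 points, at 3.5 dpi. It passed on leaving out uninjured D, 1 dpi C, 2 dpi A or 3.5 dpi D and was lost without each of the other 17 mice. The comparison of injured with uninjured mice, added after the data were seen, gave an adjusted p of 0.00835 (exact permutation test) and was lost only without uninjured B (adjusted p = 0.0526). Relative to smooth muscle cells, the mitochondrial share of neural cells was 4.06 points higher in uninjured and 3.73 points higher in injured mice, and the time course did not pass (adjusted p = 0.751).

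Heat shock protein medians moved apart in the other direction. Neural minus capillary medians were 0.250, 0.216, 0.0715 and −0.0677 points in uninjured A to D, whereas they were below 0 in all 17 injured mice, from −0.516 to −0.0661 points. Capillary medians were 0.626% in uninjured and 0.997% in injured mice. The change in this difference was −0.37 points after injury (adjusted p = 0.00668, exact permutation test, added after the data were seen), and the time course did not pass (adjusted p = 0.0725, permutation test). No readout passed relative to smooth muscle cells, where adjusted p ran from 0.751 to 0.989 over the time course and from 0.135 to 0.779 for injured against uninjured mice.

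**Figure D4:**
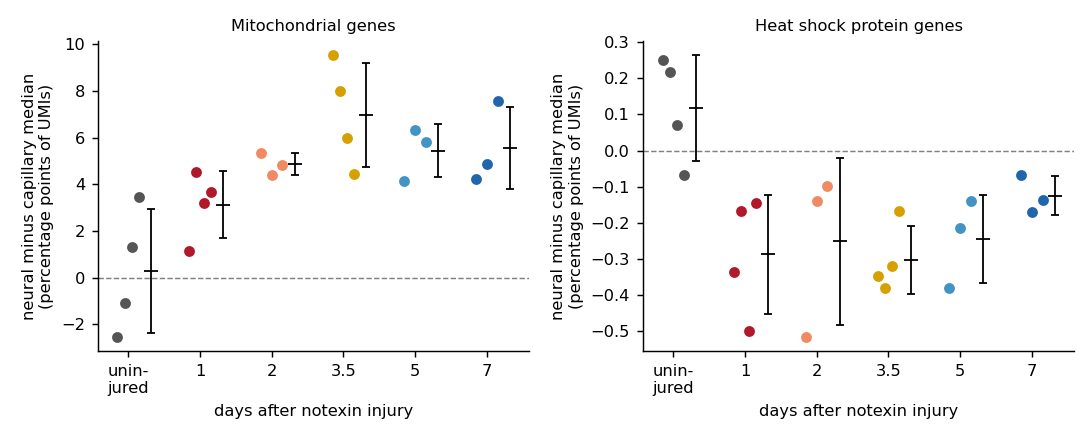
Median of neural cells minus median of capillary endothelial cells of the same mouse, in percentage points of UMIs, for mitochondrial genes (left) and heat shock protein genes (right), with group means and SD; the dashed line marks no difference. Mitochondrial differences were above 0 in all 17 injured mice, and heat shock differences below 0 in all of them.

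Against the other non-immune cells of the same mouse, a comparison given as a description because cell labels and readouts come from the same transcripts, neural cells stood out by 2 readouts. Their mitochondrial median was higher in 21 of 21 mice, by 5.73 ± 2.24 points (SD, n = 21). Their lincRNA median was also higher in 21 of 21 mice, by 1.64 ± 0.403 points: it was 3.17%, 2.69%, 3.002% and 4.296% in neural cells of uninjured mice, against 1.44%, 1.66%, 1.76% and 2.30% in their other non-immune cells. LincRNAs are long transcripts without a known protein product, of which many are kept in the nucleus. By the mean of mouse medians, neural cells ranked highest of 19 types in uninjured and of 23 types in injured muscle for mitochondrial, lincRNA and bidirectional promoter noncoding RNA shares. The next types were close: capillary cells with 17.8% against 18.04% for mitochondrial transcripts in uninjured muscle, and smooth muscle cells with 2.88% against 3.102% for lincRNA in injured muscle.

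UMIs separated neural cells from other non-immune cells after injury. In uninjured muscle neural medians were above those of other non-immune cells in 3 of 4 mice, and in injured muscle in 3 of 17, which were 1 dpi A and B and 2 dpi C. At 3.5 dpi neural medians were 3861, 5094, 2478 and 3229 UMIs, and those of other non-immune cells 10750, 11029, 14594 and 15020. All 4 mice had the lower value in neural cells. The mix of types among the other non-immune cells was not held constant, and its part in this difference was not tested.

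The study labelled each cell 3 times, after integration by Harmony, BBKNN and Scanorama, and the neural label held well across them. The 3 labels rest on the same transcripts and marker genes, so their agreement does not check what the cells are. Of the 1015 cells, 978 (96.4%) were also neural by BBKNN, 950 (93.6%) by Scanorama and 940 (92.6%) by both. In single mice 85.7 to 100% were neural by all 3 methods. Only 27 cells were neural by Harmony alone, and 99 cells were neural by another method but not by Harmony. The label most often given in its place was capillary endothelial cell, in 16 cells by BBKNN and 22 by Scanorama, and Scanorama called 68 adipogenic FAPs neural.

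Averaged over mice, agreement with BBKNN was 97.6% ± 3.03 (SD, n = 21) for neural cells and 97.3% ± 2.38 for smooth muscle cells (adjusted p = 0.575, exact sign-flip test). It was 80.8% ± 29.6 for tenocytes, 16.9 points less than for neural cells (adjusted p = 0.0143, exact sign-flip test; higher for neural cells in 14 of 21 mice). With Scanorama, 94.8% ± 4.75 of neural cells kept their label, against 80.4% ± 28.0 of tenocytes (adjusted p = 0.0303, exact sign-flip test). That difference was lost on leaving out any mouse of 3.5 dpi, 5 dpi A or 7 dpi B, with adjusted p between 0.0542 and 0.0605. For smooth muscle cells Scanorama kept only 16.3% ± 12.1, and it named 72.8% of all smooth muscle cells Pericytes, a name that is not among the Harmony labels of these samples, so no comparison of stability is drawn from this pair.

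Neural cells did not all lie in 1 of the clusters that the authors deposited. The set of cells and the settings behind these clusters are not stated with the labels. Whether they come from the clustering that gave the Neural label is therefore not known. Cluster 27 held 882 of the neural cells (86.9%), and they made up 92.9% of its 949 cells. A further 68 lay in cluster 4, whose cells were mostly capillary endothelial (76.7%), and 29 in cluster 18, mostly muscle stem cells (61.7%). The following shares are of neural cells pooled over the mice of a group, and their spread between mice was not tested. Of the 68 cells in cluster 4, 50 came from uninjured muscle, where they were 12.2% of neural cells. Cluster 18 held 11.9% of the 84 neural cells of 1 dpi, of which 44 came from 1 dpi D. At 3.5 dpi neither cluster held any of the 49 neural cells. This would allow a share of up to 6.12% if cells were independent, which cells of the same mouse are not.

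In the 14 mice with at least 3 neural cells both inside and outside cluster 27, those outside had more UMIs in 14 of 14 mice, with medians of 4829 to 33203 against 1788 to 5290. Their ribosomal protein share was also higher in 14 of 14 mice, 11.04% ± 4.34 (SD) against 6.95% ± 0.980. LincRNA was lower in all 14, at 2.12% ± 0.736 against 3.44% ± 0.633, and mitochondrial transcripts were lower in 12. The doublet score was higher outside the cluster in 9 and lower in 4 of the 14 mice. These values are a description, since the clusters were made from the same transcripts. Within cluster 27 alone, the rise of the ribosomal protein share at 1 dpi was 1.78 points (adjusted p = 0.00825, permutation test), the mitochondrial share fell by 5.55 points after injury (adjusted p = 0.0148, exact permutation test), and the share of all cells over the time course passed (adjusted p = 0.00354, permutation test). Other calls were lost within the cluster: the mitochondrial time course (−7.42 points at 1 dpi, adjusted p = 0.0538), the protein coding rise after injury (2.33 points, adjusted p = 0.0820) and the time course of the mitochondrial difference from capillary cells (6.39 points, adjusted p = 0.133).

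**Figure D5:**
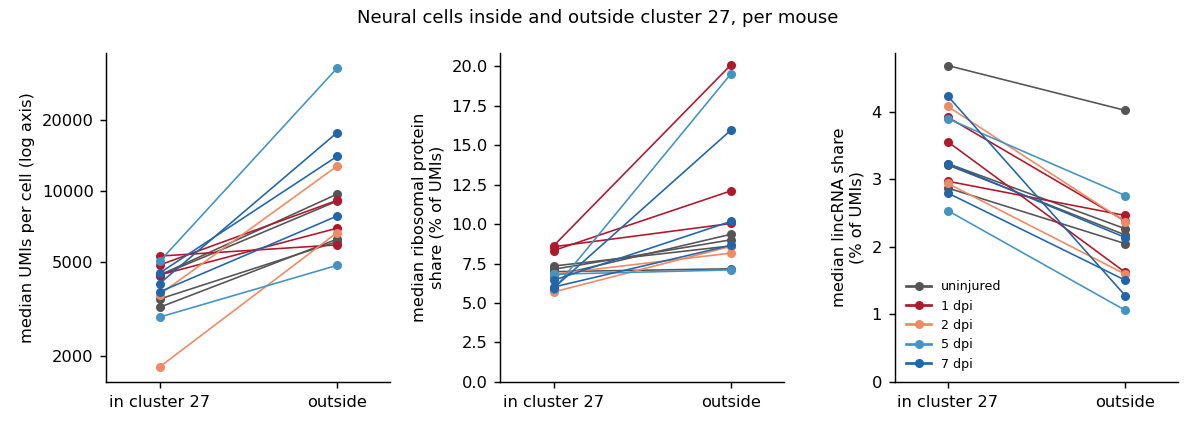
Median UMIs per cell (log axis), ribosomal protein share and lincRNA share of neural cells inside and outside cluster 27, with a line for each of 14 mice, colored by group. UMIs and the ribosomal protein share are higher and the lincRNA share lower outside the cluster in every mouse.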

How the data were processed

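Per-cell tables of 21 single-cell samples were analysed; values of single genes were not used here. The authors aligned 10x reads to mm10 with Cell Ranger 3.1.0, removed ambient RNA with SoupX, filtered cells with Seurat 3.1.5 (versions per the submitters' processing notes), removed doublets with DoubletFinder, and labelled cells after integrating these samples with other datasets. The deposited UMI totals are expected counts after SoupX correction, not normalized. Of the neural cells, 30 (2.96%) had fewer than the stated minimum of 750 genes. The deposited percent values are shares of a cell's UMIs from a gene set or, per sample, Cell Ranger's summary. The authors' fraction values are the SoupX contamination and the doublet score, and the deposited reads per cell and barcode numbers are counts. Depth was 5602460 to 70730200 UMIs per sample.

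Neural cells were those with the Harmony label Neural, found with Python 3.11.15 (numpy 2.4.6, pandas 2.3.3, scipy 1.17.1, matplotlib 3.10.9). The members, readouts and comparison types were chosen with earlier results of these data known. The mouse was the unit of every test; the study describes replicates as independent experiments. Time courses were tested by permuting F with 100000 resamples (smallest p 1e-05), 2 groups by two-sided exact permutation tests, and label agreement by two-sided exact sign-flip tests, with Benjamini-Hochberg adjustment at 0.05 over all types, all readouts of all types, 4 ratios, 20 relative tests or 4 label tests. Ratios had 0.5 cells added. Named types were the neural cells and the 4 comparison types. Tests were checked on simulated data. Alternatives were other labels, denominators, scales and cell filters (at least 750 genes; or at least 1000 genes, 2000 UMIs and at most 15% mitochondrial UMIs), means, edgeR 4.0.16 (R 4.3.3), a block for the replicate letter, and each mouse left out in turn.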

Additional observations from a re-analysis of the deposited data

Results flagged for a closer look

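In groups of 4 mice, 48 sets of neural values were tested for a mouse far from the others by Dixon's criterion, and 3 passed, where chance flags about 1 in 20. The log2 ratio of neural cells to tenocytes was −3.57 in 1 dpi C, against 0.29 to 0.61 in the other mice of 1 dpi; this sample held 160 tenocytes, against 9 to 36 in the others. The median share of bidirectional promoter noncoding RNA in neural cells was 0.0332% in uninjured D, against 0.0251 to 0.0264% in the other uninjured mice. The same readout was 0.00539% in 1 dpi C, against 0.0224 to 0.0247% in the other mice of 1 dpi.

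As a share of non-immune cells, neural cells were above every uninjured mouse at 2 dpi and below every uninjured mouse at 3.5 dpi. The 2 time points differed by 3.35 percentage points, with means of 4.80% and 1.45% (p = 0.0286, exact permutation test, the smallest that 3 against 4 mice allow). The pair was chosen after the values were seen, because its groups lay on opposite sides of all uninjured mice. Groups chosen in this way cannot overlap, so this p was fixed by the choice and nothing is concluded from it.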

How the results depend on the processing

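The test of the neural share over the time course passed under all 35 alternatives, with differences at 3.5 dpi of −3.22 to −2.47 points when a mouse was left out. Among these are non-immune cells as denominator, with or without myonuclei, which are not shares of all cells. There the mean was highest at 2 dpi and lowest at 3.5 dpi, and the test of F has no direction. Against uninjured muscle the neural share passed under 32 of 34 (−2.67 to −1.92 without a mouse). It was lost with non-immune cells as denominator (−0.805 points, adjusted p = 0.460) or those without myonuclei (−0.949, adjusted p = 0.326). Single time points passed under none of their alternatives, where small groups again set a floor on the exact p, so this does not show that shares were alike. Among non-immune cells, where alternatives were chosen after seeing the data, the 3.5 dpi difference was −2.23 to −1.46 points without a mouse, and the course was lost under the stricter filter (−1.14 points, adjusted p = 0.0517) and under a replicate block (−1.81 points, adjusted p = 0.0534). Without a mouse, the largest log2 ratios were −1.34 to −0.68 for smooth muscle cells and −3.41 to −1.83 for FAPs. Label agreement with Scanorama against tenocytes ranged from 11.1 to 15.6 points.

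The number of the 10 readouts past the threshold over the time course was 2. It was 0 under the stricter filter (ribosomal protein: 2.20 points, adjusted p = 0.122; the mitochondrial share is capped by that filter), 1 within cluster 27, and 1 to 3 with a mouse left out. For injured against uninjured mice it was 2, the mitochondrial and protein coding shares. Under the stricter filter both were lost and the heat shock protein share passed in their place, so that it was 1. It was also 1 with neural by all 3 methods and within cluster 27, and 0 to 2 with a mouse left out. Of the 20 readouts relative to other cells it was 1, and 2 under the stricter filter, 2 as shares of non-mitochondrial UMIs, 2 for injured against uninjured mice, 0 within cluster 27, and 0 to 3 with a mouse left out. Within cluster 27, of non-mitochondrial UMIs and injured against uninjured were chosen after seeing the data. Heat shock protein shares turned to a fall with means over cells (−0.305 points at 1 dpi over the course, −0.414 after injury) and under the stricter filter (−0.330 after injury).

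Deviations of same-lettered mice correlated with a median of −0.02 over 48 pairs, from −0.80 to 0.73, and 20 pairs were over 0.1. Each pair compares single mice, so these values cannot decide whether the replicate letters pair the mice. The study states that samples of different time points could be collected on the same day. With the letter as a replicate block, the share still passed over the course (−2.82 points, adjusted p = 0.00192) and after injury (−2.31, adjusted p = 0.00444), ratios did not, and readout counts were 1, 1 and 0. Few neural cells limit the medians of 3.5 dpi, with 11 to 14 per mouse, and of 5 dpi A, with 11. They also limit 1 dpi A, B and C, with 13, 14 and 13, where the mitochondrial and ribosomal protein differences were largest.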
